A study of Mus musculus with 4 samples.

Results

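Polycomb repressive complex 2 (PRC2) was followed through spermatogenesis at the level of messenger RNA, as the transcripts of its 10 subunit genes *Suz12*, *Ezh1*, *Ezh2*, *Eed*, *Rbbp4*, *Rbbp7*, *Jarid2*, *Aebp2*, *Mtf2* and *Phf19*. The genes were listed by symbol and not ranked by a measured value, though earlier results of these data were known. All 10 were among the 32285 genes counted. PRC2 methylates lysine 27 of histone H3, a mark of silenced genes. EZH2 or its paralogue EZH1 carries the catalytic site, SUZ12 and EED are needed for activity, and the histone-binding proteins RBBP4 and RBBP7 complete the core. The core joins either JARID2 and AEBP2 (PRC2.2) or a Polycomb-like protein such as MTF2 or PHF19 (PRC2.1). In the testis, H3K27 methylation is known for silencing somatic and lineage genes while spermatogonia differentiate and enter meiosis. The X and Y chromosomes are silenced later in meiosis, at pachytene.

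Single-cell libraries were made from the testes of 4 C57BL/6N mice at postnatal day 15, 2 wild-type and 2 *Meioc*-null (labelled *Meioc* KO, allele tm1.1Dpc), with 1 testis per pup. Each of the 2 batches held 1 littermate pair, 1 pup of each genotype. All 4 mice were also heterozygous for the *Hspa2* allele tm1Dix and homozygous for a *ROSA26* tdTomato reporter whose floxed stop was intact. *Meioc* was deleted in the whole animal, and it encodes a germ-cell protein that acts on messenger RNA around meiotic entry. Part of the interstitium was discarded during dissociation, and Leydig cells numbered 20 to 68 per library.

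The cells kept numbered 5644 and 7505 for wild type, and 6554 and 6522 for *Meioc*-null (replicate 1 before replicate 2 throughout). Germ cells fell into 11 clusters, numbered along their order from cluster 1. By fixed marker genes, cluster 1 held undifferentiated spermatogonia, clusters 2 to 6 differentiating spermatogonia, clusters 8 to 10 early spermatocytes and cluster 11 pachytene spermatocytes. The naming rule was set after the clusters were seen. Marker scores were scaled to their highest over the clusters. A cluster was unnamed where its second score exceeded 0.8 of its best, unless its leading genes held a marker of the best class, as in cluster 11. Cluster 7 was left unnamed, with scaled scores of 0.74 (differentiating) and 0.66 (early spermatocyte). In it 5 of 7 differentiating and 6 of 8 early spermatocyte markers were detected. No *Meioc*-null cell was placed in cluster 11, and cluster 10 held 78 and 110 *Meioc*-null cells against 307 and 740 wild-type cells. This rests on placing cells by their nearest wild-type cells. The study, with its own clustering, did assign some *Meioc*-null cells to the pachytene stage. Levels are given as CPM, the UMIs (unique molecular identifiers) of a gene per 1000000 UMIs of all genes in the cluster and library, from sums of 252572 to 20044898 UMIs where genotypes were tested. They come from tags at the 3′ end, 1 per captured transcript, and are not divided by gene length. *Meioc* tags were counted in both genotypes, at 293 and 291 CPM over the wild-type germ-cell clusters and 343 and 282 CPM over the *Meioc*-null ones. Where these tags lie relative to the deletion was not settled, so they do not check the genotype labels. Between 7 and 16 cell barcodes were shared by any pair of libraries.

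The first question was how each subunit varied over the stages of wild-type germ cells and over the somatic types. *Ezh2*, *Eed* and *Mtf2* were higher in every germ-cell cluster than in Sertoli, peritubular myoid, Leydig and Dcn/Mgp-led cells, the last a somatic cluster called by its leading genes. *Ezh2*, *Suz12*, *Rbbp4*, *Jarid2* and *Aebp2* had their lowest germ-cell level in a spermatogonial cluster and their highest in a later one. *Eed* and *Mtf2* were highest in spermatogonia, and *Rbbp7* fell to about 10 CPM in pachytene spermatocytes. These stage levels are a description, because the clusters were made from the same cells.

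**Figure D1:**
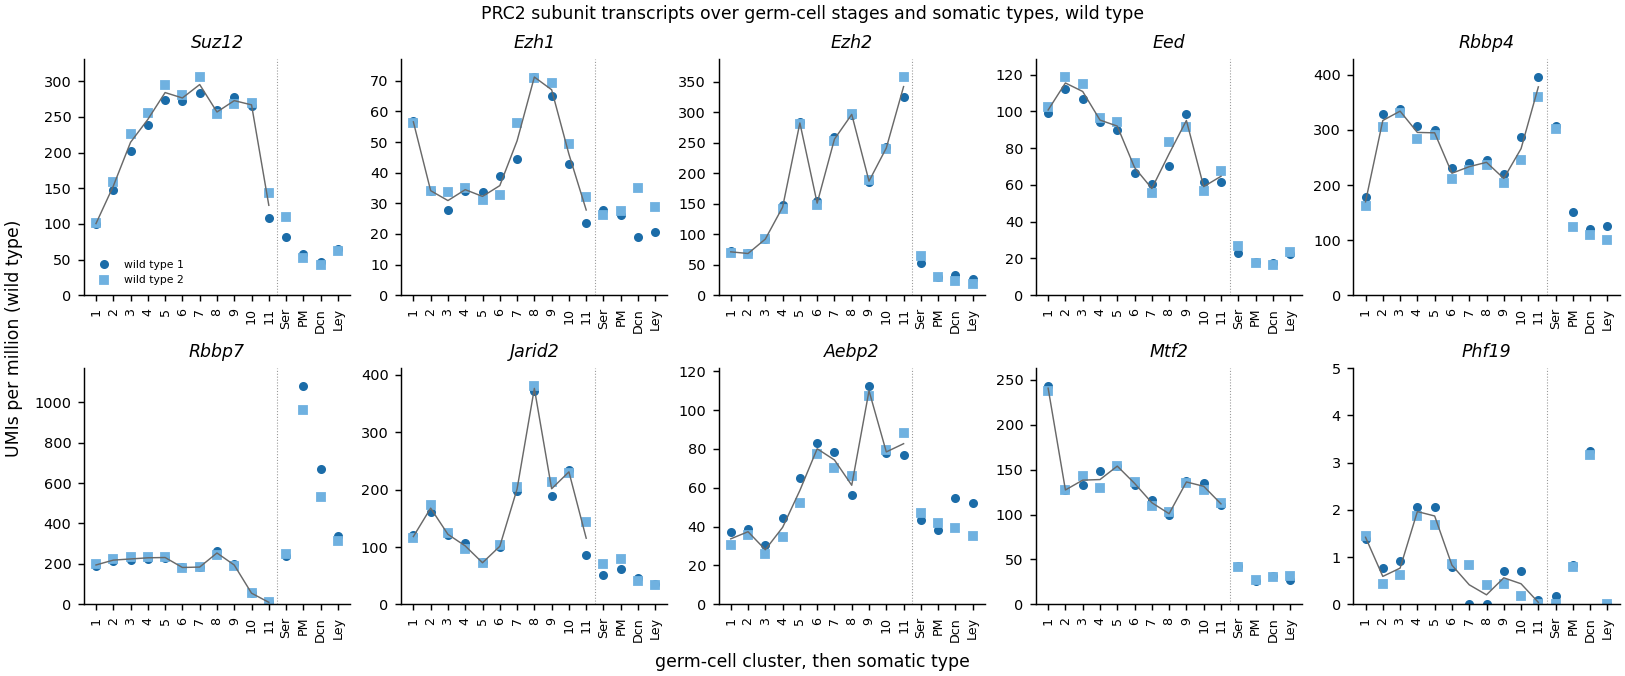
Levels of the 10 PRC2 subunit transcripts in wild type, in UMIs per 1000000 UMIs on a linear axis from 0, for germ-cell clusters 1 to 11 and for Sertoli (Ser), peritubular myoid (PM), Dcn/Mgp-led (Dcn) and Leydig (Ley) cells. Points are the 2 libraries and the line joins their means over the germ-cell clusters. *Ezh2* ends at its highest level in cluster 11, where *Rbbp7* is at its lowest, and *Phf19* stays under 4 CPM in every cluster shown.

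*Suz12* (ENSMUSG00000017548, chromosome 11, 79993106 to 80034123, GRCm38 here and below) encodes the scaffold of the complex. It stood at 99.3 and 101.7 CPM in cluster 1, at 147 and 159 CPM in cluster 2, at 202 and 227 CPM in cluster 3 and at 284 and 307 CPM in cluster 7, which was its highest. The mean of cluster 7 was 2.94 times that of cluster 1, and the libraries of those clusters did not overlap. Clusters 5 to 10 lay between 255 and 307 CPM in all wild-type libraries, and 6 of the 14 neighbours in the order of its levels overlapped between libraries, 5 of them among clusters 4 to 10. In cluster 11 it fell back to 109 and 144 CPM. In Sertoli cells, which nurse the germ cells, it stood at 82.2 and 109.7 CPM, and in peritubular myoid cells, which wall the tubule, at 57.2 and 52.8 CPM.

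Of the promoters, that of *Suz12* is shown because this gene was called in each of clusters 7 to 10 below, and because E2F-type sites are common in promoters of cell cycle genes. The motifs TTTCCCGC, TTTGGCGC, TTTGCCGC and TTTCGCGC, were searched on both strands in the 250 bases before the start in RefSeq (GRCm38.p6). *Suz12* and *Phf19* held a match, so 2 of the 14 promoters listed for the 10 members did, against 1.86% of all 32851 promoters, and the other 8 members had none of these letters in that window. The sequence below covers chr11:79992856-79992955 on the plus strand, 250 to 151 bases before the *Suz12* start, outside any annotated exon, with the match in capitals.
Suz12: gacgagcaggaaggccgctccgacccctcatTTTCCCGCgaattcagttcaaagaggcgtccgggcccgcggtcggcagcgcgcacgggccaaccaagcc
The match begins 219 bases before the start. It is a description of these letters and no evidence that a factor binds there.

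The catalytic paralogues followed different courses. *Ezh2* (ENSMUSG00000029687, chromosome 6, 47530139 to 47595341) stood at 72.4 and 69.9 CPM in cluster 1 and at 69.4 and 67.4 CPM in cluster 2. It rose in steps to 284 and 282 CPM in cluster 5, was at 154 and 148 CPM in cluster 6, and returned to 296 and 298 CPM in cluster 8. In cluster 9 it stood at 186 and 188 CPM, and in cluster 11 it reached its highest level, 326 and 359 CPM, 5.00 times the mean of cluster 2. Only 2 of the 14 neighbours in the order of its levels overlapped between libraries, both among somatic types, where *Ezh2* stood at 18.0 to 64.5 CPM. Over the 11 wild-type clusters, the genes whose log2(CPM + 1) followed that of *Ezh2* most closely among 9124 genes were *Cdkn2c* (Pearson r = 0.96), an inhibitor of cyclin-dependent kinases, *Smc4* (r = 0.96), a condensin subunit, and *Mtx2* (r = 0.95). These are correlations over clusters that share libraries, given without a test.

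*Ezh1* (ENSMUSG00000006920, chromosome 11, 101191115 to 101226463) had its highest levels in the early spermatocyte clusters, 71.4 and 71.1 CPM in cluster 8 and 65.0 and 69.2 CPM in cluster 9. Cluster 1 held 57.0 and 56.2 CPM of it, and clusters 2 to 6 held 27.9 to 38.9 CPM. In cluster 11 it was at 23.5 and 32.1 CPM, within the range of the somatic types. The genes with courses most like it were *Rps20* (r = 0.92), *Anks1* (r = 0.91) and *Cmc4* (r = 0.91), while its correlation with *Ezh2* was 0.10.

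As a share of the UMIs of both paralogues, *Ezh1* made up 44.0% (exact 95% binomial interval 41.6 to 46.5) and 44.6% (42.3 to 46.9) in the undifferentiated cluster 1. Cluster 5 had an *Ezh1* share of 10.6% and 9.90%, cluster 8 of 19.5% and 19.3%, and pachytene cluster 11 of 6.73% (5.99 to 7.53) and 8.22% (7.40 to 9.10). In myoid cells it was 46.7% and 48.1%. The share in cluster 1 was therefore outside the intervals of every later germ-cell cluster in both libraries, and the intervals cover counting error only.

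**Figure D2:**
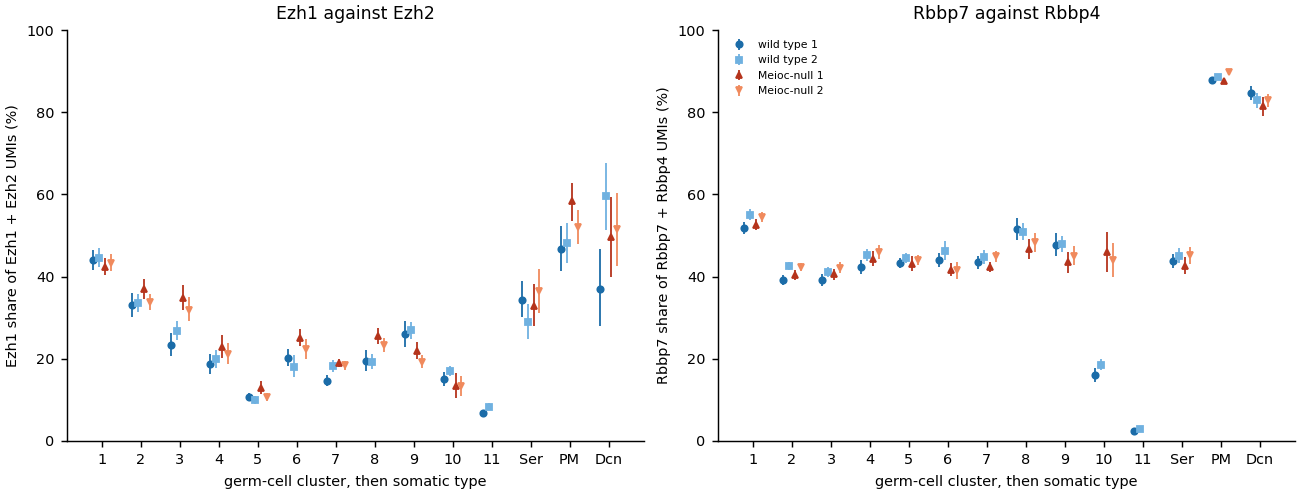
*Ezh1* as a percentage of *Ezh1* and *Ezh2* UMIs (left) and *Rbbp7* as a percentage of *Rbbp7* and *Rbbp4* UMIs (right) in each germ-cell cluster and in Sertoli (Ser), peritubular myoid (PM) and Dcn/Mgp-led (Dcn) cells. Points are the 4 libraries and bars are exact 95% binomial intervals. The wild-type *Ezh1* share is about 44% in cluster 1 and under 9% in cluster 11, and the *Rbbp7* share is under 3% in cluster 11 and over 80% in myoid and Dcn/Mgp-led cells.

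*Eed* (ENSMUSG00000030619, chromosome 7, 89954654 to 89980983), whose product binds the methyl mark itself, stood at 112 and 118.9 CPM in cluster 2, its highest, and at 60.4 and 55.7 CPM in cluster 7, its lowest among germ cells. Cluster 9, at 98.5 and 91.6 CPM, stood above the adjacent clusters 8 and 10 but below clusters 2 and 3. Sertoli, myoid, Leydig and Dcn/Mgp-led cells lay at 16.6 to 26.8 CPM, below every germ-cell cluster.

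*Rbbp4* (ENSMUSG00000057236, chromosome 4, 129307100 to 129335370) and *Rbbp7* (ENSMUSG00000031353, chromosome X, 162760402 to 162779092) encode histone chaperones that also serve other chromatin complexes. *Rbbp4* stood at 178 and 161 CPM in cluster 1, 337 and 331 CPM in cluster 3, 219.7 and 204 CPM in cluster 9 and 397 and 359.6 CPM in cluster 11, its highest. *Rbbp7* stayed between 182 and 262 CPM in clusters 1 to 9. It then stood at 54.8 and 55.7 CPM in cluster 10 and at 9.44 and 10.7 CPM in cluster 11, counts of 112 and 113 UMIs in 11867312 and 10551581. Of the UMIs of both paralogues, cluster 8 had 51.6% and 51.0% from *Rbbp7*, cluster 10 had 16.0% and 18.5%, and cluster 11 had 2.32% and 2.89%. In myoid cells *Rbbp7* was at 1081 and 959 CPM, and its share was 87.8% and 88.6%, the highest of any type.

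*Rbbp7* is X-linked, and its course was set beside that of other X-linked genes. From cluster 8 to cluster 9 the median of 189 X-linked genes changed by 0.12 on the log2(CPM + 1) scale and that of autosomal genes by 0.03. Over that step *Rbbp7* changed by -0.38. From cluster 9 to cluster 10 it changed by -1.80 on the log2(CPM + 1) scale, where the median of 234 X-linked genes was -1.41 and that of autosomal genes -0.20. From cluster 10 to cluster 11 it changed by a further -2.35, where the median of 141 X-linked genes was -3.38. *Rbbp4* changed by -0.19 from cluster 8 to cluster 9 and rose over the later steps, by 0.33 and 0.51. The summed level of 5 myoid marker genes was 11 to 20.1 CPM in cluster 11 and 18740 to 21257 CPM in myoid cells.

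Of the accessory subunits, *Jarid2* (ENSMUSG00000038518, chromosome 13, 44729474 to 44921643), whose product helps to bring PRC2.2 to chromatin, had the sharpest peak. It stood at 73.8 and 71.3 CPM in cluster 5, 198 and 204 CPM in cluster 7 and 372 and 381 CPM in cluster 8. The mean of cluster 8 was 5.19 times that of cluster 5. It fell to 189 and 214 CPM in cluster 9 and stood higher again in cluster 10, at 234 and 228 CPM. In cluster 11 it was at 86.3 and 144 CPM, where the libraries were far apart.

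*Aebp2* (ENSMUSG00000030232, chromosome 6, 140622663 to 140678472), which stabilises PRC2.2, rose from 30.3 and 25.9 CPM in cluster 3 to 112 and 107 CPM in cluster 9. Of the 14 neighbours in the order of its levels, 11 overlapped, and the steps without overlap were below cluster 9, between cluster 7 and cluster 8, and above cluster 3. *Mtf2* (ENSMUSG00000029267, chromosome 5, 108065674 to 108109004), a Polycomb-like protein that binds CpG-rich DNA, was highest in undifferentiated spermatogonia, at 243 and 238 CPM. It stood at 128 and 127 CPM in cluster 2 and at 99.0 and 103 CPM in cluster 8, its lowest in germ cells, and at 26.5 to 42.3 CPM in somatic types.

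*Phf19* (ENSMUSG00000026873, chromosome 2, 34893757 to 34914026), the other Polycomb-like member, was barely counted. Over all germ-cell clusters it had 83 and 89 UMIs in the wild-type libraries and 73 and 76 UMIs in the *Meioc*-null libraries. Its highest wild-type mean was in Dcn/Mgp-led cells, where the libraries stood at 3.25 and 3.16 CPM. In wild type it had 17 and 21 UMIs in cluster 1 and 26 and 21 UMIs in cluster 5, against 1 and 0 UMIs in cluster 11, where the sums held 11867312 and 10551581 UMIs. Counts this low leave most of the order of its levels unresolved, and 11 of its 14 neighbours overlapped.

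The somatic sums also held germ-cell transcripts. A list of 5 germ-cell markers summed to 55.0 to 204 CPM in the Sertoli, Leydig, myoid and Dcn/Mgp-led cells of wild type and to 1747 to 3843 CPM in its germ-cell clusters. How much of the low somatic levels of the members came from such RNA was not tested.

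As a summary of stage, the mean of early spermatocyte clusters 8 to 10 was divided by that of differentiating clusters 2 to 6 in each wild-type library. The log2 ratio was 1.25 ± 0.03 for *Jarid2*, 0.87 ± 0.07 for *Ezh1*, 0.77 ± 0.18 for *Aebp2*, 0.71 ± 0.03 for *Ezh2* and 0.18 ± 0.08 for *Suz12* (SD, n = 2). It was -0.17 ± 0.01 for *Mtf2*, -0.29 ± 0.04 for *Rbbp4*, -0.33 ± 0.05 for *Eed* and -0.37 ± 0.09 for *Rbbp7*. Scaling by TMM raised all 9 ratios by 0.12 to 0.18 and turned none. Both *Meioc*-null libraries lay outside the wild-type range for all of these but *Aebp2* (0.71 and 1.01). The share of all genes that separate this way was not counted, and 2 libraries per genotype can separate without any difference. The *Meioc*-null ratio was 0.92 and 0.98 for *Suz12*, 1.26 and 1.27 for *Ezh2*, and 0.37 and 0.38 for *Jarid2*. It was -0.65 and -0.71 for *Rbbp4*, and for *Mtf2* it had the opposite sign to wild type, at 0.23 and 0.30. *Ezh1* (0.99 and 1.10), *Eed* (-0.49 and -0.50) and *Rbbp7* (-0.45 and -0.57) lay nearer to the wild-type values.

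The second question was whether loss of *Meioc* changed these transcripts within a cluster. Counts were summed per library and cluster, all genes were tested with edgeR's quasi-likelihood test, and a call needed both a p under 0.05 after Benjamini-Hochberg adjustment over the genes of that cluster and a log2 change of more than 0.1 in size. Fold changes divide wild type by *Meioc*-null, so negative values are higher in *Meioc*-null, and n = 2 libraries per genotype. Calls were made for 8 of the 10 members in at least 1 of clusters 7 to 10, where 67.5% of all genes tested in any of these clusters had a call. *Suz12*, *Mtf2*, *Ezh2* and *Ezh1* rose in *Meioc*-null cells, *Jarid2*, *Rbbp4* and *Eed* fell, and *Rbbp7* did both in different clusters. In clusters 1 to 6 no member was called. None was called in the tested Sertoli, myoid and Dcn/Mgp-led clusters or in an unnamed cluster of shallow cells.

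Of 36 member and cluster pairs tested in clusters 7 to 10, 11 were called higher in *Meioc*-null and 8 higher in wild type. The difference had the same direction in both batches for all 19. A call on these same libraries largely requires that, so it is no separate support. Without wild type replicate 1 the 11 became 6, and without wild type replicate 2 the 8 became 6. DESeq2 called 15 of the 36 pairs, and of the 19 it lost *Ezh1* in cluster 9 (adjusted p = 0.0785), *Ezh2* in cluster 10 (0.0549), *Rbbp7* in cluster 9 (0.0699) and *Mtf2* in cluster 7 (0.154). Over all genes, 19.9% of pairs in these clusters were called higher in *Meioc*-null and 17.6% higher in wild type. By cluster, calls fell on 2 of 9 tested members in cluster 7, where 15.5% of all genes were called. They fell on 5 of 9 members in cluster 8 (all genes 33%), on 7 of 9 in cluster 9 (all genes 46.8%), and on 5 of 9 in cluster 10 (all genes 58.1%). Read against that background, the members' share was close to it in clusters 7 and 10. In clusters 8 and 9 the share was above it, on 9 tested members each, a difference that was not tested. The median log2 fold change of the tested members was -0.19, 0.12, 0.13 and -0.06 in clusters 7 to 10, and that of all genes -0.005, -0.04, -0.02 and 0.005. In clusters 1 to 6, 57 pairs were tested, with 0 called by edgeR or by DESeq2 and 3 at an unadjusted p under 0.05. With the replicate block in edgeR, 1 was called (*Rbbp7* in cluster 6, 0.29, adjusted p = 0.0475). Of all pairs in clusters 1 to 6, 0.123% were called higher in *Meioc*-null and 0.07% higher in wild type. The Sertoli, myoid and Dcn/Mgp-led clusters and the unnamed cluster of shallow cells held 35 pairs. These gave 0 calls by both tools and 0 at an unadjusted p under 0.05. The shallow cluster held germ-cell markers at 2031 and 1892 CPM in wild type, so it is not counted as somatic. Of all genes, 0.496% were called in Sertoli, 0.119% in myoid, 0.0372% in Dcn/Mgp-led and 0.0371% in the shallow cells. In such sums, a change in the mix of cells within a cluster and a change of RNA per cell cannot be told apart.

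**Figure D3:**
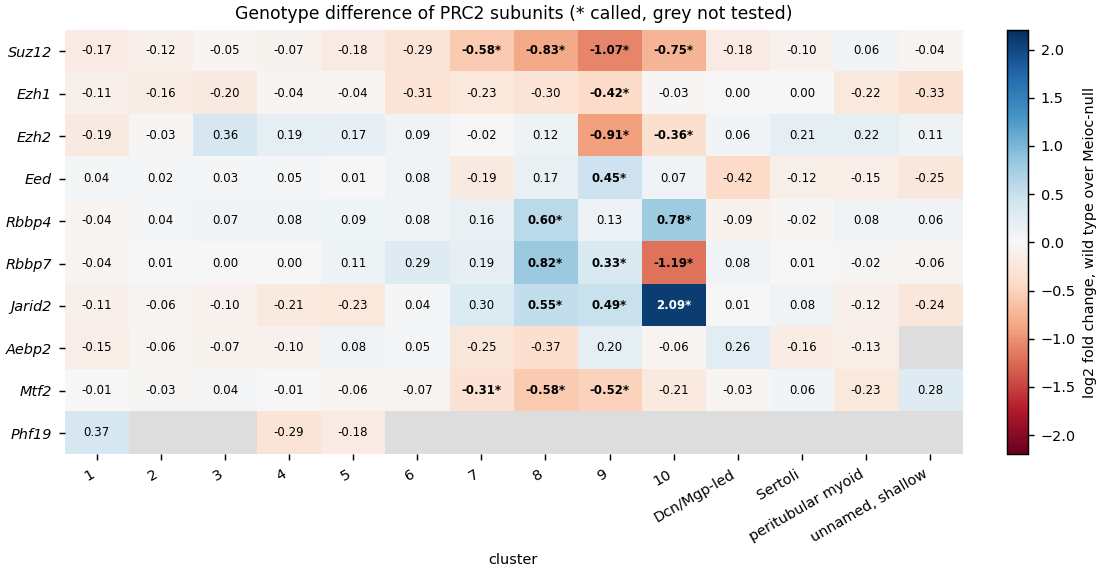
Log2 fold change of each member (rows), wild type over *Meioc*-null, in each tested cluster (columns), with negative values in red higher in *Meioc*-null. Asterisks mark calls and grey cells were not tested because of low counts. All asterisks stand in clusters 7 to 10, from -1.19 for *Rbbp7* to 2.09 for *Jarid2*, both in cluster 10.

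The cells compared within a cluster also differed in other genes. Each *Meioc*-null cell was placed by its nearest wild-type cells, so a state found only in *Meioc*-null had no cluster of its own. The study reports such a mutant-only group of spermatocytes, mainly in G2/M phase. Which clusters those cells fell into here was not tested. The 14 G2/M phase genes summed to 2869 and 2952 CPM (wild type) against 4754 and 4246 CPM (*Meioc*-null) in cluster 7, and to 2759 and 2760 CPM against 4759 and 4463 CPM in cluster 10. Cluster 8 had 5473 and 5700.1 CPM of them against 7649.8 and 7255 CPM, and cluster 9 had 3945 and 4036 CPM against 5259 and 4979.6 CPM. The 15 S phase genes were also higher in *Meioc*-null in cluster 10, at 1263 and 1121 CPM against 971 and 784 CPM, and in cluster 9, at 1831 and 1581 CPM against 1392 and 1196 CPM. In cluster 8 they were lower in *Meioc*-null, at 1784 and 1692 CPM against 2029.97 and 1829 CPM. The 7 markers of differentiating spermatogonia stood at 1078 and 979 CPM in *Meioc*-null cells of cluster 10 and at 218 and 204 CPM in wild type, and in cluster 9 at 629 and 587 CPM against 237 and 207 CPM. In cluster 8 they stood at 571 and 551 CPM against 431 and 390.3 CPM. Only sums were taken, so which of these 7 markers carry the difference was not tested, nor whether X-linked ones do. The 8 pachytene markers stood at 211 and 232 CPM in *Meioc*-null cells of cluster 10 and at 1019 and 871 CPM in wild type, in cluster 9 at 332 and 348 CPM against 621 and 519.9 CPM, and in cluster 8 at 204 and 214 CPM against 288 and 275 CPM. The 8 early spermatocyte markers were higher in *Meioc*-null in cluster 8, at 5961 and 5635 CPM against 5071 and 4948 CPM, and in cluster 9, at 6396 and 6115 CPM against 5055 and 4577 CPM. The 7 undifferentiated markers stood at 3.91 and 3.92 CPM in *Meioc*-null cells of cluster 10 against 32.7 and 26.8 CPM. The part of these differences in the results below was not tested. The 5 germ-cell markers summed to 3398 and 3343 CPM in *Meioc*-null cells of cluster 8 against 2929 and 2802 CPM, to 3262 and 3396 CPM in cluster 9 against 2747 and 2537 CPM, and to 3374 and 3356 CPM in cluster 10 against 3783 and 3528 CPM. In cluster 7 the genotypes overlapped, at 2502 to 2538 CPM and 2396 to 2577 CPM.

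*Suz12* showed the difference in every one of clusters 7 to 10. It stood at 284 and 307 CPM (wild type) against 469.6 and 443 CPM (*Meioc*-null) in cluster 7, and at 259 and 255 CPM against 502 and 488 CPM in cluster 8. In cluster 9 it stood at 277 and 268 CPM against 576 and 566 CPM, and in cluster 10 at 265 and 269 CPM against 483 and 485 CPM. In cluster 9 the fitted *Meioc*-null level was 2.1 times that of wild type. The log2 fold change was -0.58 (SE 0.125, adjusted p = 0.0103, edgeR) in cluster 7, -0.83 (SE 0.124, adjusted p = 0.000224) in cluster 8, -1.07 (SE 0.151, adjusted p = 6.11e-06) in cluster 9 and -0.75 (SE 0.14, adjusted p = 9.36e-05) in cluster 10. Without wild type replicate 1, the call in cluster 7 was lost (-0.47, adjusted p = 0.151). In clusters 5 and 6, which were not called, *Meioc*-null libraries stood at 326 and 338 CPM and at 361 and 332 CPM, above the wild-type 274 and 295 CPM and 272 and 281 CPM. The study, testing single cells, reports *Suz12* as lowered by MEIOC in late spermatogonial and/or the first preleptotene spermatocyte clusters. It also lists *Suz12* among transcripts bound by MEIOC and its partners YTHDC2 and RBM46. Its clusters and its test differ from those used here.

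**Figure D4:**
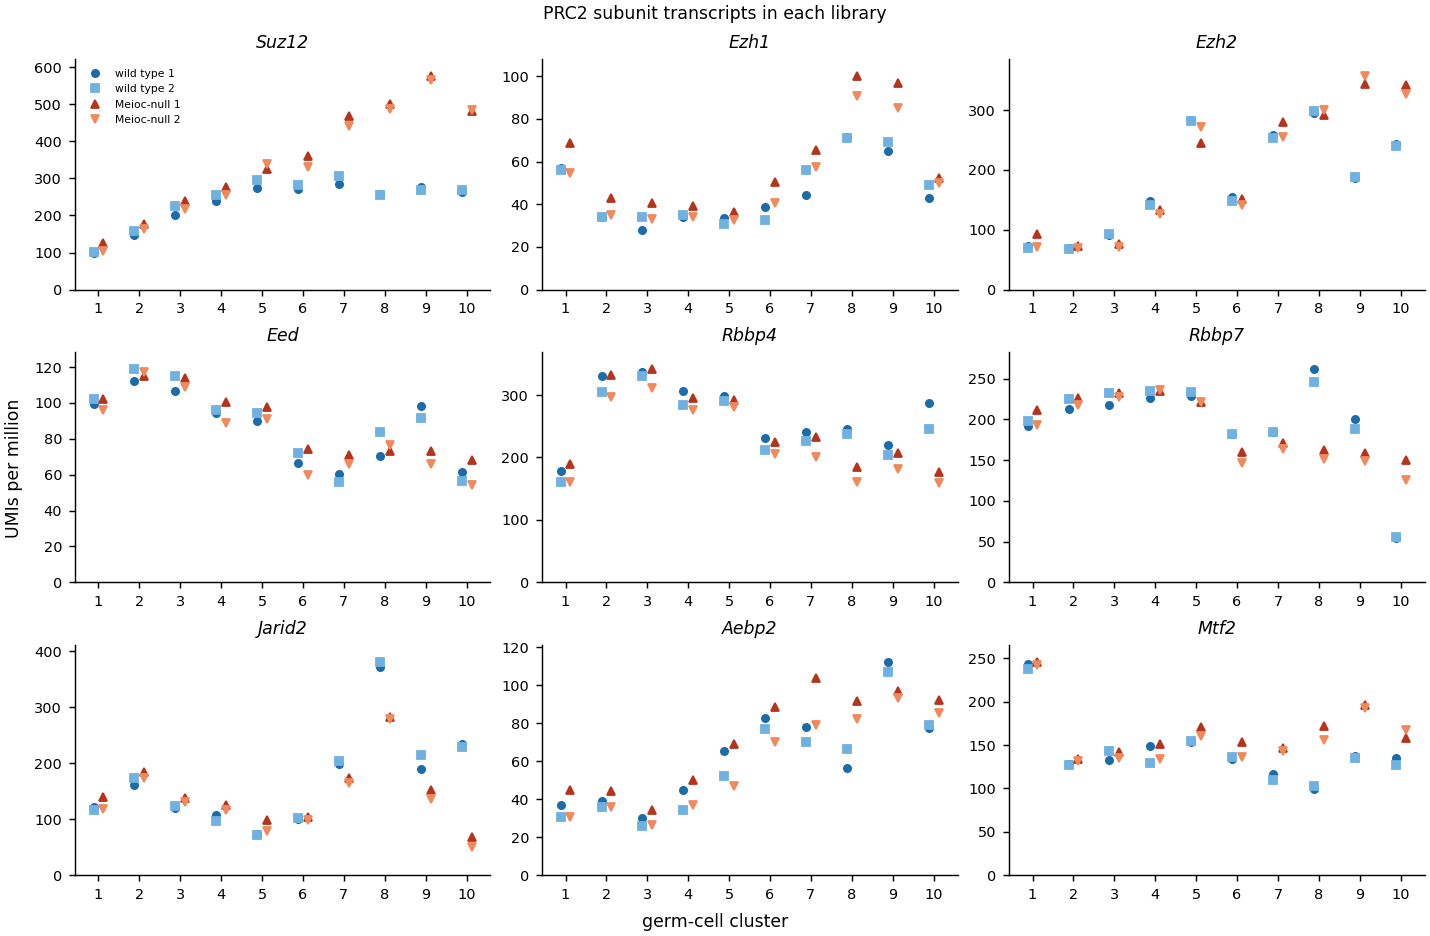
Level of each member except *Phf19* in every library over germ-cell clusters 1 to 10, in UMIs per 1000000 UMIs, with wild-type and *Meioc*-null libraries in different colours and 1 point per library. The genotypes do not overlap for *Suz12* in clusters 1, 2 and 5 to 10, nor for *Ezh2* in clusters 9 and 10, where *Meioc*-null is higher, and in clusters 3 to 5, where wild type is higher, and for *Jarid2* they lie farthest apart in cluster 10.

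*Ezh2* was called in clusters 9 and 10. In clusters 3 to 5 it was not called, though the libraries of the genotypes did not overlap and wild type was the higher. With 2 libraries per genotype such separation can occur without any difference, and the share of all genes showing it was not counted. In cluster 3 it stood at 91.6 and 92.6 CPM (wild type) against 76.2 and 70.8 CPM (*Meioc*-null), with a log2 fold change of 0.36 (edgeR, unadjusted p = 0.00649, adjusted p = 1). In cluster 8 the genotypes overlapped, at 296 and 298 CPM (wild type) against 291 and 300.4 CPM (*Meioc*-null). In cluster 9, where wild type fell to 186 and 188 CPM, *Meioc*-null stood at 344 and 357 CPM. In cluster 10 the values were 243 and 241 CPM against 341 and 328 CPM, again without overlap. The log2 fold change was -0.91 (SE 0.136, adjusted p = 1.2e-05, edgeR) in cluster 9 and -0.36 (SE 0.131, adjusted p = 0.0235) in cluster 10. The call in cluster 10 was lost without wild type replicate 1 (-0.30, adjusted p = 0.162), without wild type replicate 2 (-0.38, adjusted p = 0.0857) and without *Meioc*-null replicate 2 (-0.30, adjusted p = 0.132).

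*Ezh1* rose in cluster 9, where it stood at 65.0 and 69.2 CPM (wild type) against 96.7 and 85.0 CPM (*Meioc*-null) (log2 fold change -0.42, SE 0.121, adjusted p = 0.00661, edgeR), a call lost without wild type replicate 1 (-0.31, adjusted p = 0.166). In cluster 8 it stood at 71.4 and 71.1 CPM against 100.02 and 90.9 CPM, which was not called, but was with genes in at least 25% of cells (adjusted p = 0.0327), no doublet removal (0.0367), total UMIs as the only scaling (0.0253) or the replicate block (-0.30, adjusted p = 0.0219). With the block, so was cluster 7 (-0.25, adjusted p = 0.0361). As a share of both paralogues in cluster 9, *Ezh1* made up 25.9% and 26.9% (wild type) against 21.9% and 19.3% (*Meioc*-null). The share differed the other way in cluster 8, with 19.5% and 19.3% against 25.6% and 23.2%.

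*Eed* fell in cluster 9, with 98.5 and 91.6 CPM in wild type against 73.0 and 65.8 CPM in *Meioc*-null (log2 fold change 0.45, SE 0.118, adjusted p = 0.00319, edgeR). *Rbbp4* was lower in *Meioc*-null in cluster 8, at 246 and 237 CPM against 185 and 161 CPM (0.60, SE 0.11, adjusted p = 0.000967). In cluster 10 it stood at 287 and 245 CPM against 176 and 159 CPM (0.78, SE 0.13, adjusted p = 2.39e-05, edgeR).

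*Rbbp7* changed direction between clusters. In cluster 8 it stood at 262 and 246 CPM (wild type) against 162 and 151 CPM (*Meioc*-null) (0.82, SE 0.109, adjusted p = 9.54e-05, edgeR). In cluster 9 it stood at 201 and 188 CPM against 159 and 149 CPM (0.33, SE 0.119, adjusted p = 0.0254), a call lost without wild type replicate 1 (adjusted p = 0.135), wild type replicate 2 (adjusted p = 0.17) or *Meioc*-null replicate 1 (adjusted p = 0.0745). In cluster 10 wild type was at 54.8 and 55.7 CPM and *Meioc*-null at 150.3 and 125 CPM (-1.19, SE 0.134, adjusted p = 1.13e-07). The *Rbbp7* share of both paralogues in that cluster was 16.0% (14.4 to 17.7) and 18.5% (17.3 to 19.8) in wild type and 46% (41.2 to 51.0) and 44.0% (40.0 to 48.2) in *Meioc*-null. Of 444 X-linked genes tested in cluster 10, 83.1% were called higher in *Meioc*-null, against 26.9% of autosomal genes. The median log2 fold change was -1.64 for the X-linked and 0.04 for the autosomal genes tested. The difference of *Rbbp7* in cluster 10 had the sign of that X-linked median and was smaller. In clusters 8 and 9 the X-linked medians were -0.29 and -0.33, opposite in sign to the values of *Rbbp7* there.

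*Jarid2* had the widest difference of the members. In cluster 8 it stood at 372 and 381 CPM (wild type) against 282 and 278 CPM (*Meioc*-null) (0.55, SE 0.121, adjusted p = 0.00357, edgeR). In cluster 9 it stood at 189 and 214 CPM against 153 and 137 CPM (0.49, SE 0.125, adjusted p = 0.00281), which was lost without wild type replicate 2 (0.36, adjusted p = 0.153). In cluster 10 it stood at 234 and 228 CPM against 68.1 and 51.0 CPM, 4.27 times higher in wild type by the fit (2.09, SE 0.145, adjusted p = 5.66e-11). In cluster 7 it stood at 198 and 204 CPM against 173 and 164 CPM, which was not called, but was with the replicate block (0.30, adjusted p = 0.00206), with genes in at least 25% of cells (0.31, adjusted p = 0.0235) and with cells placed without the called genes (0.52, adjusted p = 0.00518).

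*Mtf2* was higher in *Meioc*-null in 3 clusters. Cluster 7 had 117 and 109.7 CPM (wild type) against 147 and 144 CPM (*Meioc*-null) (-0.31, SE 0.0963, adjusted p = 0.0479, edgeR), and leaving out any 1 library lost that call (adjusted p = 0.078 to 0.203). In cluster 8 it stood at 99.0 and 103 CPM against 172 and 156 CPM (-0.58, SE 0.113, adjusted p = 0.00156). In cluster 9 it stood at 137 and 135 CPM against 196 and 193 CPM (-0.52, SE 0.12, adjusted p = 0.00129), lost without wild type replicate 1 (-0.45, adjusted p = 0.0772). In cluster 10 *Mtf2* stood at 135 and 127 CPM against 158 and 168 CPM, called with cells placed without the called genes (adjusted p = 0.0463) and with total UMIs as the only scaling (adjusted p = 0.0228). *Aebp2* was not called: in cluster 8 it stood at 56.3 and 66.2 CPM against 91.65 and 82.3 CPM, with an adjusted p of 0.0504 by edgeR, and it was called there with the replicate block (adjusted p = 0.0109), with no filter on low counts (0.0221), with genes in at least 25% of cells (0.0242), without wild type replicate 2 (-0.56, adjusted p = 0.0138), with no doublet removal (0.0487) and with total UMIs as the only scaling (0.0182). In cluster 7 it was called with the replicate block (-0.25, adjusted p = 0.0262). *Phf19* was tested only in clusters 1, 4 and 5 and was not called there.

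The third question was whether a genotype difference in early spermatocyte clusters 8 to 10 differed from that in differentiating clusters 2 to 6. This was tested in 1 fit with library and cluster as terms, over 15644 genes, of which 44.9% were called, 21.6% with a positive and 23.2% with a negative value. Of the 10 members, 6 were called, 3 in each direction. The early minus differentiating difference, on the log2 scale of wild type over *Meioc*-null, was 1.20 for *Jarid2* (SE 0.0591, adjusted p = 5.52e-26, edgeR), 0.47 for *Rbbp4* (SE 0.0494, adjusted p = 2.64e-12) and 0.23 for *Eed* (SE 0.0671, adjusted p = 0.00359). It was -0.71 for *Suz12* (SE 0.048, adjusted p = 9.88e-20), -0.50 for *Ezh2* (SE 0.0556, adjusted p = 2.2e-11) and -0.37 for *Mtf2* (SE 0.0533, adjusted p = 2.23e-08). The call of *Eed* was lost without the library term, which holds the replicate pairing (adjusted p = 0.0506), and with total UMIs as the only scaling (0.15, adjusted p = 0.0676). *Rbbp7*, with opposite differences in clusters 8 and 10, gave -0.06 (adjusted p = 0.424), and *Ezh1* gave -0.07 (adjusted p = 0.567). These p-values treat the clusters of a library as separate observations after its library term, and they rest on 2 mice per genotype.

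Other Polycomb genes, 34 of which were counted, gave the setting of these members. The list holds other PRC2-associated genes, the H3K27 demethylases, the canonical PRC1 and variant PRC1 complexes that bind or act beside the mark, except PRC1.6 and its own subunits, which were not in the list, and the deubiquitinase that opposes PRC1. In clusters 7 to 10, 58 of 127 pairs were called, 39 higher in *Meioc*-null and 19 higher in wild type, beside the 19.9% and 17.6% of all pairs given above. The median log2 fold change of the list was -0.04, -0.20, -0.28 and -0.38 in clusters 7 to 10. The list holds the X-linked genes *AU022751*, *Kdm6a*, *Scml2*, *Bcor* and *Bcorl1*. In cluster 10 the median of all X-linked genes was -1.64, as given above. The part of X-linked genes in the calls and medians of the list was not tested. No pair was called among 204 in clusters 1 to 6 by edgeR or DESeq2, where 5 had an unadjusted p under 0.05 and 4 were called with the replicate block. No pair was called by either tool among 117 in the tested somatic clusters and the unnamed shallow cluster together, where 7 had an unadjusted p under 0.05.

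Within that list, 8 genes were called in at least 3 clusters in 1 direction. *Kdm6b*, a demethylase that removes the mark laid by PRC2, stood at 16.8 and 14.5 CPM (wild type) against 111.5 and 88.1 CPM (*Meioc*-null) in cluster 9 (-2.69, SE 0.15, adjusted p = 6.74e-12, edgeR). *Pcgf2*, a PRC1 subunit, stood at 5.24 and 1.98 CPM against 22.2 and 18.6 CPM there (-2.72, SE 0.32, adjusted p = 5.78e-07). *Phc3*, *Lcor* and *Asxl1* were also higher in *Meioc*-null, by at most 0.88, 0.80 and 0.72 on the log2 scale. *Pcgf5*, of a variant PRC1, stood at 392 and 369.7 CPM (wild type) against 104 and 94.2 CPM (*Meioc*-null) in cluster 10 (2.06, SE 0.14, adjusted p = 4.5e-11). *Kdm2b* and *Phc1* were higher in wild type as well, by at most 1.19 and 1.05 on the log2 scale.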

How the data were processed

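Testis cells were captured on the 10x Genomics 3′ v3.1 platform. Per the labels and the submitters' processing notes, the authors made the deposited counts, whole UMIs per gene and barcode, with Cell Ranger 4.0.0 on mm10 (GRCm38), and Seurat is also named. Replicates are separate pups. Barcodes with more than 1000 detected genes and under 10% mitochondrial UMIs were kept, which left 6334 to 8494 per library. The barcodes with the highest Scrublet scores were then removed, at a rate of 0.8% per 1000 deposited barcodes of the library, which took 690 to 996 of those kept. Wild-type cells, and then wild-type germ cells alone, were clustered with scanpy 1.11.5 and leidenalg 0.10.2 on variable genes (2000 at most, 30 components) that excluded the members and the other Polycomb and cell cycle lists, and other cells were placed by their 30 nearest wild-type cells. Every cell kept was thus given a wild-type cluster, however far it lay from the wild-type cells. The members and all gene lists were chosen with earlier results of these data known.

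Counts were summed per library and cluster with at least 50 cells in every library, filtered with filterByExpr, scaled by TMM and tested with edgeR 4.0.16 (quasi-likelihood, robust, R 4.3.3), with Benjamini-Hochberg adjustment over all genes of a cluster. The script was tested on simulated data. DESeq2 1.42.0, other scalings and filters, the replicate block and leaving out each library were alternatives. Replicate numbers mark the batch, a littermate pair, and deviations of same-numbered samples correlated at 0.292 to 0.538 over clusters 1 to 10, so the numbers pair the samples. The study tested single cells. Named genes are all members, other Polycomb genes called in at least 3 germ-cell clusters in 1 direction (at most 12), and the 3 genes most like *Ezh1* and *Ezh2* among those of at least 20 CPM in some cluster. Intervals are exact binomial at 95% and, like the depth of a sum, cover counting error only. Promoters are from RefSeq and coordinates from GENCODE vM21.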

Additional observations from a re-analysis of the deposited data

Results flagged for a closer look

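For 6 members the genotype difference in early spermatocyte clusters differed from that in differentiating spermatogonia (edgeR, adjusted over all genes, library and cluster as terms, 44.9% of all genes called). The difference between stages, as log2 of wild type over *Meioc*-null, was 1.20 for *Jarid2*, 0.468 for *Rbbp4* and 0.229 for *Eed*, and -0.708 for *Suz12*, -0.495 for *Ezh2* and -0.372 for *Mtf2*. For *Jarid2* the mean log2 fold change was 1.04 over the early and -0.11 over the differentiating clusters, and for *Suz12* -0.88 and -0.14. The sums of differentiating, pachytene and cell cycle markers that also differed between genotypes in clusters 8 to 10 are given with the results, and their part was not tested.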

How the results depend on the processing

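Of 247 values of the 19 called member and cluster pairs under the alternatives, 224 stayed called in the same direction, 23 lost the call and none reversed. The number of pairs higher in *Meioc*-null was 11, 6 to 10 when 1 library was left out, lowest without wild type replicate 1, 8 with DESeq2 and 15 with the replicate block. Pairs higher in wild type numbered 8, 6 to 8 when 1 library was left out, 7 with DESeq2 or no filter on low counts, and 10 with the replicate block. The block, which pairs littermates, lost none of the 19 calls. For other Polycomb genes it raised the pairs higher in *Meioc*-null from 39 to 53, and DESeq2 gave 28. Calls in the somatic clusters and the unnamed shallow cluster were 0 throughout. For the stage difference, 5 members were called with no replicate block (no library term, which holds the pairing) and 6 otherwise. *Eed* lost that call there (adjusted p = 0.0506) and with total UMIs as the only scaling (0.0676), an alternative chosen after seeing the data, under which *Rbbp7* gained it (-0.14, adjusted p = 0.017) and which shifted the median log2 fold change of all genes by -0.119 in cluster 8 and -0.112 in cluster 10. Of 45 stage ratios 16 moved by more than the spread between replicates, and none changed sign. Of 40 values of the paralogue shares 15 moved and 25 stayed the same. With a mitochondrial limit of 5%, too few cells were left in clusters 7 to 10, so germ-cell counts were not run under it. *Phf19*, and cluster 10 with 78 and 110 *Meioc*-null cells, are limited by depth.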
